A study of Mus musculus with 19 samples.

Results

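The core circadian clock genes are 10 of the 24537 genes in the deposited table: Arntl, Clock, Npas2, Per1, Per2, Per3, Cry1, Cry2, Nr1d1 and Nr1d2. They were chosen by symbol, each matched a single row, and all 10 were among the 12749 genes that passed the filter on low counts. Poly(A) RNA was sequenced from hepatocytes, the main metabolic cell of the liver, isolated by a 2-step perfusion from male wild-type C57BL/6J mice, with 1 library per mouse. The young mice were 5 months old (n = 10) and the old mice 24 months old (n = 9), and the labels name no drug, transgene or other treatment for either age. On the first cull day 5 young and 5 old mice were killed, and on the second 5 young and 4 old mice. All mice of an age share a birth date in the labels, which do not give the hour of killing, the lighting schedule or the feeding state. Mice are named here by their library numbers.

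The mammalian clock is a transcriptional feedback loop that runs in nearly every cell. The proteins of Arntl (BMAL1) and Clock, or its relative Npas2, pair and switch on genes through a DNA element called the E-box, among them the Per and Cry genes, whose proteins return to the nucleus and inhibit that pair. In an interlocking loop, the nuclear receptors of Nr1d1 and Nr1d2 (REV-ERB alpha and beta) repress Arntl, Npas2 and other genes through elements shared with the ROR receptors. Liver transcripts of most of these genes, Clock being among the flattest, rise and fall over each day, so a level depends on the hour at which a mouse was killed. That hour is not recorded, so differences by age or cull day in these genes cannot be told apart from differences in the hour of killing, within a day as well as over both. Age was compared over both cull days with the day as a term, and within each cull day.

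Totals ran from 17381439 to 20287628 counts per library, and single members gave between 4 counts (Npas2 in young 1188) and 2155.5 counts (Nr1d1) in a library. Of the young libraries of the first cull day, 3 (1184, 1186 and 1188) stood apart: Lcn2, an acute-phase gene, was at 208 to 1126 CPM (the count scaled to a common library total, adjusted by the trimmed mean of M-values, TMM) in them, at 0.548 to 1.87 CPM in the other 7 young mice and at 4.06 to 133 CPM in the old mice. Hepatocyte markers were abundant throughout: 15 of them summed to 144869 to 194776 CPM in young and 156103 to 244936 CPM in old mice. Markers of other liver cells were also present and were higher in the old: summed macrophage markers ran from 101 to 487 CPM in young and 68.0 to 3276 CPM in old mice, and stellate cell markers from 51.1 to 135 CPM and 143 to 502 CPM. Old 1187 stood apart in macrophage genes, with Lyz2 at 732 CPM where the remaining old libraries had 10.9 to 139 CPM, and the medians of the macrophage sum were 178 CPM in young and 475 CPM in old mice. In bulk RNA, fewer cells of a type and less RNA per cell cannot be told apart.

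The promoters of 5 members are shown because they hold, between them, each kind of clock element searched and belong to genes whose levels are compared below. Windows came from RefSeq (GRCm38.p6), 250 bases before and 50 after a transcript start, and 9 of the 10 members had at least 1 window; Per2 had none. Each is printed 5′ to 3′ on the gene's strand with the matched elements in capitals. Both strands were searched. The E-box was searched as CACGTG, and its variant the E′-box as CACGTT, which reads AACGTG on the other strand. The element shared by the ROR and REV-ERB receptors was searched as TAGGTCA. The D-box, bound by DBP, TEF, HLF and NFIL3, was searched as TTATGTAA, TTATGCAA or TTACGTAA. No matches shown overlap one another.
Arntl, chr7:113207261-113207560, plus strand: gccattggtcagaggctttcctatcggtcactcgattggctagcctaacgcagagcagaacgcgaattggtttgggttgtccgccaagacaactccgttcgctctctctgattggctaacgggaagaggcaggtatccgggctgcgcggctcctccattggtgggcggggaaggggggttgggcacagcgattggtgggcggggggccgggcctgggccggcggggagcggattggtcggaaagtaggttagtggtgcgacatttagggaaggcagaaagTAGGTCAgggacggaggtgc
Cry1, chr10:85185005-85185304, minus strand: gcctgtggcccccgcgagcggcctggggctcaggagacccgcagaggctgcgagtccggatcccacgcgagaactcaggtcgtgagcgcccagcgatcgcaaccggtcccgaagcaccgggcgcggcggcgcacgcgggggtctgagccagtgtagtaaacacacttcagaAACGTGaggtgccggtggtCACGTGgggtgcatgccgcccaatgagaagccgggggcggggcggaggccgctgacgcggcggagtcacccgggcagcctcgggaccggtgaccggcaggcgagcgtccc
Per1, chr11:69098699-69098998, plus strand: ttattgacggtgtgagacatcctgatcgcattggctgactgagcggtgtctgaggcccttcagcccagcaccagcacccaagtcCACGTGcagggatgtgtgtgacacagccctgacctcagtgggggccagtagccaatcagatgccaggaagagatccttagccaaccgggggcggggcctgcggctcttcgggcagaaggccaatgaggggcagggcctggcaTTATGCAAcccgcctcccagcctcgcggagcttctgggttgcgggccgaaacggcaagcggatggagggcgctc
Per3, chr4:151044616-151044915, minus strand: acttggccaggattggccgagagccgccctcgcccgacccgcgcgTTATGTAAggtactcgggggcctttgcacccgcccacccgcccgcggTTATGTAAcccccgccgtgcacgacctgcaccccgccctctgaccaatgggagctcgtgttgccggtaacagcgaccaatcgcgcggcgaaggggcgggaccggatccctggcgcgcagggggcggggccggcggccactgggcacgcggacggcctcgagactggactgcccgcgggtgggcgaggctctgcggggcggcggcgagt
Nr1d1, chr11:98775328-98775627, minus strand: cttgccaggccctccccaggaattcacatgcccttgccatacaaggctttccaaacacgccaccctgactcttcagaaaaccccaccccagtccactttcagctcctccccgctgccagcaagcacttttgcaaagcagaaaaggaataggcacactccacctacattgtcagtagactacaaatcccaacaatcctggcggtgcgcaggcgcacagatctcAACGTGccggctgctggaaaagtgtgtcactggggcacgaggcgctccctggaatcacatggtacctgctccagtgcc

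The Arntl window holds the ROR and REV-ERB element 30 bases after a start that lies 46 bases from that of the transcript counted. The window of the counted transcript has no match, but it ends at position 113207514, before the element at 113207541-113207547. Cry1 holds an E-box and an E′-box within 79 bases before its start. The Per1 window belongs to a start 1209 bases from that of the transcript counted and holds an E-box and a D-box, while the window 6 bases from the counted start has no match. Per3 holds 2 D-boxes, at 205 and 158 bases before the start, and Nr1d1 an E′-box at 28 bases before it. Cry2 also had an E′-box, and the windows of Clock, Npas2 and Nr1d2 had none of these letters. Over all 32851 windows of 300 bases, the E-box was found in 7.15%, the E′-box in 4.68%, the ROR and REV-ERB element in 2.61% and the D-box in 1.78%. A match describes letters and not binding.

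Per kilobase of counted exon, Nr1d1 had the highest level, at 28.4 ± 7.79 CPM per kb (SD, n = 19), followed by Nr1d2 at 10.4 ± 2.44 CPM per kb. Nr1d1 was above Nr1d2 in 19 of 19 libraries, and Nr1d2 above the next gene, Arntl, in 18 of 19. Arntl at 5.30 ± 1.55 CPM per kb was above Cry2 at 5.00 ± 0.935 CPM per kb in 10 of 19 libraries, so these neighbours did not differ beyond their spread. Clock at 4.32 ± 1.22 CPM per kb and Cry1 at 3.30 ± 1.41 CPM per kb came next, then Per1 at 1.64 ± 0.626 and Per2 at 0.982 ± 0.383 CPM per kb. Npas2 at 0.558 ± 0.346 CPM per kb and Per3 at 0.360 ± 0.147 CPM per kb were lowest, and Npas2 was above Per3 in 12 of 19 libraries. The order of some means differed between the ages, which was not tested. Mean Npas2 was below Per3 in young mice (0.380 and 0.417 CPM per kb) and above it in old mice (0.756 and 0.298). Mean Arntl was below Cry2 in young (4.95 and 5.19) and above it in old mice (5.69 and 4.79). Arntl, Cry2 and Per3 did not pass the test for age given below.

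Over both cull days, Per1, Per2, Nr1d2 and Clock were lower in old hepatocytes and Npas2 was higher, while Arntl, Per3, Cry1, Cry2 and Nr1d1 did not pass the test. Mean Per2 was 6.98 ± 2.36 CPM (SD, n = 10) in young and 4.29 ± 0.793 CPM (SD, n = 9) in old mice, and Npas2 rose from 1.58 ± 0.922 to 3.14 ± 1.5 CPM. Thus 5 of 10 members were called, 1 higher and 4 lower, where 32.0% of all 12749 genes were called, 17.0% higher and 15.0% lower (edgeR's quasi-likelihood test, Benjamini-Hochberg adjusted p under 0.05). The median log2 fold change of the members was -0.37, against -0.002 over all genes tested, and the median absolute log2 fold change was 0.43, against 0.20. With library totals as the only scaling, 65.9% of all called genes were higher in the old instead of 53.1%, with the median of all genes at 0.05, and the 5 members called kept their directions. The members called numbered 3 without a cull day term (3547 genes in all) and 3 to 5 with 1 library left out (3093 to 4212 genes). With the other-cell score described below as a covariate they numbered 2 (1596 genes). With old 1187 also left out, a choice made after seeing the data, they numbered 0 (2247 genes). Nothing in the labels says more on how mice were sampled than 1 library each. The p-values set the age difference against the spread between these mice, culled on 2 days, with the cull day taken out.

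Arntl (chr7:113207465-113314126, mm10), the partner without which the activating pair does not form, showed no age difference past the test. On the first cull day its levels were 15.9, 10.2, 19.1, 18.2 and 8.25 CPM in the young mice 1180, 1182, 1184, 1186 and 1188, and 15.4, 20.9, 16.6, 9.24 and 8.74 CPM in the old mice 1181, 1183, 1185, 1187 and 1189. On the second cull day they were 15.3, 18.3, 15.2, 7.62 and 14.7 CPM in the young mice 1235, 1237, 1239, 1243 and 1244, and 21.9, 20.5, 18.0 and 16.4 CPM in the old mice 1236, 1238, 1240 and 1242. Low values occurred at both ages, in 1182, 1188 and 1243 among the young and 1187 and 1189 among the old. Old mice were at 0.20 ± 0.20 relative to young on the log2 scale (SE; adjusted p = 0.46 by edgeR, both days), and 7 of 9 old mice were above the young mean of their day.

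Clock (chr5:76209868-76304792, mm10), the histone acetyltransferase that partners BMAL1, was lower in the old. In the same order of mice it was at 73.3, 44.2, 62.2, 43.6 and 46.6 CPM in young and 39.6, 43.4, 35.9, 26.7 and 44.7 CPM in old mice of the first cull day. The second cull day gave 43.2, 56.8, 35.8, 32.6 and 39.3 CPM in young and 29.3, 42.4, 31.3 and 27.4 CPM in old mice. The ages overlapped on both days, with 8 of 9 old mice below the young mean of their day and 4 of 9 below all 10 young mice. Over both days the age difference was -0.43 ± 0.13 on the log2 scale (SE; adjusted p = 0.0186 by edgeR), and it passed with any single library left out. With the other-cell score described below as a covariate it was -0.27 (adjusted p = 0.269).

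Npas2 (chr1:39194272-39363240, mm10), which can stand in for Clock as BMAL1's partner, was the member that rose, from the fewest counts. Young mice of the first cull day had 1.38, 1.13, 2.08, 1.39 and 0.220 CPM, and old mice 3.17, 4.99, 2.36, 1.21 and 1.04 CPM. Young mice of the second cull day had 2.92, 2.47, 2.59, 0.329 and 1.28 CPM, and old mice 4.78, 4.37, 4.07 and 2.31 CPM. All 9 old mice were above the young mean of their day and 5 of 9 above all 10 young mice, with overlap on both days. Over both days the difference was 1.03 ± 0.37 on the log2 scale (SE; adjusted p = 0.04 by edgeR). The call rests on few counts, 4 to 96 per library: it held in 10 of the 19 fits that leave out 1 library and was lost without young 1180, 1182, 1188 or 1244 or old 1181, 1183, 1236, 1238 or 1240, with the adjusted p at most 0.0815 (without 1183). It was also lost without the 3 young libraries that stood apart (1.02, adjusted p = 0.0617) and without a cull day term (0.99, adjusted p = 0.0598).

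Of the Period genes, whose proteins carry the inhibitory signal back to the nucleus, Per1 and Per2 were lower in the old and Per3 did not pass. Per2 (chr1:91415982-91459328, mm10) was at 6.41, 4.95, 6.24, 4.91 and 7.81 CPM in young and 4.95, 5.10, 5.15, 4.79 and 3.43 CPM in old mice of the first cull day. The second cull day gave 12.0, 6.39, 5.74, 10.1 and 5.20 CPM in young and 3.03, 3.49, 4.31 and 4.36 CPM in old mice. The old values fell in a narrow band, all 9 below the young mean of their day and 6 of 9 below all 10 young mice, while the young of the second day spread widely. Its log2 fold change over both days was -0.69 ± 0.18 (SE; adjusted p = 0.00717 by edgeR), and it passed with any single library left out. In this fit that was the largest fall among the members, within the errors of that of Per1 (-0.62 ± 0.21, SE). With the other-cell score in the model Per1 fell further than Per2. Per2 did not pass with that score and old 1187 left out (-0.64, edgeR adjusted p = 0.0621).

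Per1 (chr11:69100158-69109957, mm10), a Period gene that also responds quickly to glucocorticoids and to feeding signals, was at 12.0, 10.9, 7.88, 9.93 and 10.1 CPM in young and 10.3, 2.96, 9.86, 8.55 and 5.77 CPM in old mice of the first cull day. On the second cull day it was at 7.83, 10.3, 6.46, 9.27 and 4.51 CPM in young and 3.91, 3.59, 3.28 and 6.52 CPM in old mice. The lowest old value of the first day belonged to 1183, the mouse with the highest Npas2. Over both days Per1 differed by -0.62 ± 0.21 on the log2 scale (SE; adjusted p = 0.0302 by edgeR), with 8 of 9 old mice below the young mean of their day. The call was lost without old 1236, 1238 or 1240 or young 1237, with adjusted p up to 0.0601, with the other-cell score in the model (-0.82, edgeR adjusted p = 0.0615) and without a cull day term (-0.55, adjusted p = 0.0897).

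Per3 (chr4:151003655-151044665, mm10), the Period gene least needed for rhythm, had 18 to 86 counts per library and ran from 1.42 to 4.72 CPM in young mice (median 2.10) and 0.873 to 2.63 CPM in old mice (median 1.87). The highest young value, in 1243, came from the mouse with the lowest Arntl. The difference, -0.50 ± 0.23 on the log2 scale (SE; adjusted p = 0.105 by edgeR), did not pass, with 8 of 9 old mice below the young mean of their day. Without 1243 it was -0.33 (adjusted p = 0.209).

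Neither Cryptochrome, the repressors that bind the BMAL1 and CLOCK pair directly, passed the test. Cry1 (chr10:85131700-85185054, mm10) ran from 3.52 to 16.7 CPM in young mice (median 11.9) and 3.69 to 15.1 CPM in old mice (median 8.20), a difference of -0.31 ± 0.26 on the log2 scale (SE; adjusted p = 0.381 by edgeR). Cry2 (chr2:92403647-92434069, mm10) varied less, with means of 20.7 ± 4.31 CPM in young and 19.1 ± 2.97 CPM in old mice (SD), a difference of -0.12 ± 0.13 on the log2 scale (SE; adjusted p = 0.479 by edgeR). The 2 lowest Cry2 levels, 13.0 and 14.6 CPM, belonged to young 1184 and 1186. Without the 3 young libraries that stood apart, Cry2 was lower in the old by the test (-0.31, edgeR adjusted p = 0.0284). A non-coding gene on the other strand, D930015M05Rik, shares 295 exon bases with Cry2, and its row held 6 to 20 counts.

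Of the REV-ERB genes, Nr1d2 was lower in the old and Nr1d1 did not pass; the difference between these genes was not tested. Nr1d2 (chr14:18204056-18239106, mm10) was at 70.2, 54.9, 42.7, 48.8 and 73.9 CPM in young and 45.3, 29.4, 45.6, 42.7 and 50.6 CPM in old mice of the first cull day. The second cull day gave 51.6, 53.6, 40.6, 60.5 and 50.8 CPM in young and 35.8, 34.8, 41.6 and 42.0 CPM in old mice. The ages overlapped on both days, through young 1184 and 1186 on the first and young 1239 on the second, yet all 9 old mice were below the young mean of their day. Over both days Nr1d2 differed by -0.43 ± 0.11 on the log2 scale (SE; adjusted p = 0.00784 by edgeR), and it passed with any single library left out. It did not pass once the other-cell score was added to the model (-0.42, edgeR adjusted p = 0.0762).

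Nr1d1 (chr11:98767932-98775377, mm10) was at 80.4, 81.9, 47.4, 36.9 and 92.1 CPM in young and 67.6, 51.8, 111, 86.6 and 111 CPM in old mice of the first cull day. On the second cull day it was at 61.9, 75.0, 87.0, 94.7 and 106 CPM in young and 95.8, 53.2, 67.9 and 77.8 CPM in old mice. The lowest levels were those of young 1184 and 1186, and without the 3 young libraries that stood apart the age difference went from 0.08 ± 0.19 (log2 scale, SE; adjusted p = 0.766 by edgeR) to -0.10. Nr1d1 overlaps Thra, a thyroid hormone receptor gene on the opposite strand, over 263 exon bases. Thra had 200 to 515 counts per library against 661 to 2155.5 for Nr1d1, and the strand setting of the counting is not given in the sources used here, so reads in the shared bases could have gone to either gene.

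The day of killing divided the calls but not, by test, the age differences. Within the second cull day Per2 alone passed, at -1.05 on the log2 scale (edgeR adjusted p = 0.0182), where 5.53% of all genes were called and 2.60% were called lower. Within the first cull day no member passed (2 had an unadjusted p under 0.05, as had 35.1% of all genes), where 17.8% of all genes were called; Nr1d2 was at -0.44 (adjusted p = 0.0559) and Clock at -0.51 (adjusted p = 0.0616). DESeq2 called both there, with 2842 genes in all against 2265 by edgeR. The edgeR count over all genes on that day fell to 407 without the 3 young libraries that stood apart and to 450 in a fit of the day alone, both with 0 members. With 1 library left out, edgeR called both without old 1189, Clock without young 1182 or 1237 and Nr1d2 without young 1184. Per2 was at -0.37 on the first day (adjusted p = 0.232). Its call on the second day was lost without old 1236 (-0.96, adjusted p = 0.0549) or young 1243 (-0.95, adjusted p = 0.0514), and a fit of the second day alone called 3 members, Per1, Per2 and Nr1d2, along with 2389 of all genes in place of 705. With the other-cell score in the model the second day gave 92 genes and 0 members, with Per2 at -1.09 (edgeR adjusted p = 0.0741). Per2 was also the member whose ages did not overlap on the second day, which held for 8.02% of genes with the old lower; on the first day no member separated, against 8.07% of genes in either direction.

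**Figure D1:**
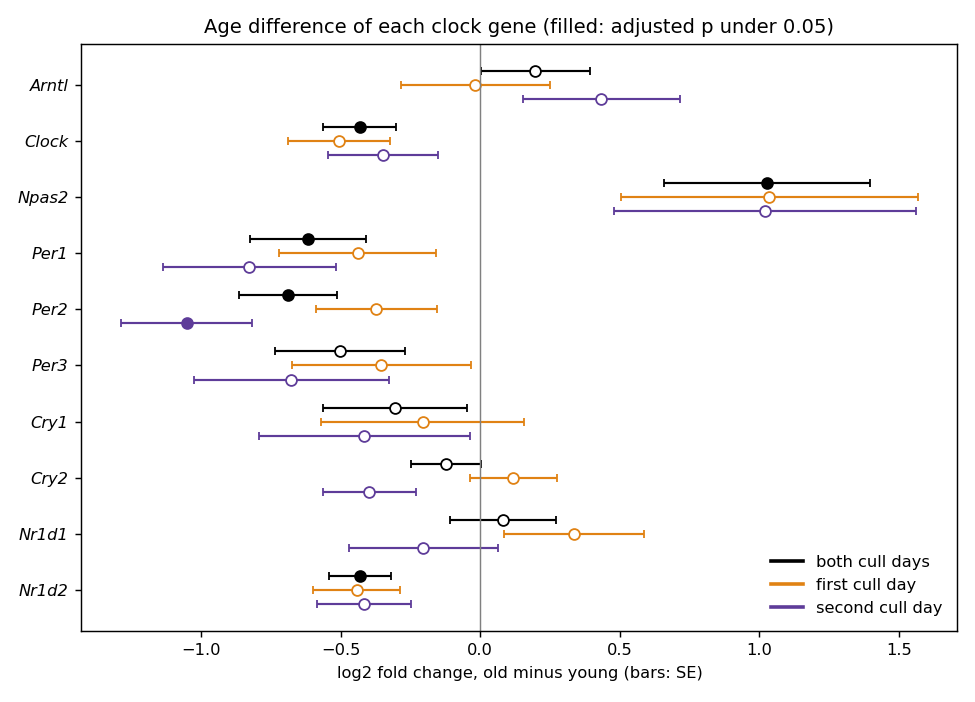
Log2 fold change of each clock gene, old minus young (x axis; bars are the SE), over both cull days (black), within the first (orange) and within the second (purple), from edgeR; filled circles have an adjusted p under 0.05. Npas2 lies near 1 in all 3 estimates with wide bars, Clock and Nr1d2 keep similar values on both days, and Per2 moves from -0.37 on the first day to -1.05 on the second.

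The test of the age difference between cull days called 0 of 12749 genes by edgeR (841 had an unadjusted p under 0.05, and DESeq2 called 18), and no member. Per2, with a difference of -0.68, and Cry2, with -0.52, had an unadjusted p under 0.05, and their adjusted p-values were 0.747 and 0.737. Cry2 was at 0.12 on the first day and -0.40 on the second (edgeR adjusted p = 0.624 and 0.157), and Nr1d1 at 0.34 and -0.20 (adjusted p = 0.358 and 0.668). Clock, at -0.51 and -0.35, and Npas2, at 1.03 and 1.02, had like values on both days. Between the cull days themselves, 11.0% of all genes were called and no member was. Without the 3 young libraries that stood apart, 0 genes were called between the days. Among members, the lowest adjusted p was that of Per1, lower on the second day by a log2 fold change of -0.60 (edgeR adjusted p = 0.0688), which passed by DESeq2 (adjusted p = 0.0353). Without old 1183 Per1 and Cry1 passed between the days, at -0.70 and 0.75 (edgeR adjusted p = 0.0126 and 0.0341).

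Markers of other liver cells moved with age beside these results. Over both days all 12 macrophage markers, 8 of 10 endothelial markers and all 11 stellate markers passed as higher in the old, as did 17.0% of all genes. Within the first and second cull day, 1 and 0 macrophage, 3 and 2 endothelial and 8 and 5 stellate markers passed as higher. Of all genes, 17.8% and 5.53% were called there in either direction. The mean log2 CPM of the 33 macrophage, endothelial and stellate markers was used as an other-cell score. It ran from 2.56 to 4.18 in young and 2.84 to 6.09 in old mice. Summed T and NK cell markers were at 0.0552 to 0.701 CPM in young and 0.416 to 15.6 CPM in old mice, B cell markers at 0.0584 to 0.442 and 0.485 to 12.0 CPM, neutrophil markers at 0.110 to 4.46 and 0.832 to 14.2 CPM with Ly6g at 0 in every young mouse, and cholangiocyte markers at 3.21 to 19.5 and 4.80 to 10.8 CPM. With the score as a covariate 1596 genes were called in place of 4074, and 2 members: Per2 at -0.69 (edgeR adjusted p = 0.0468) and Npas2 at 1.26 (adjusted p = 0.0493). Per1, Clock and Nr1d2 did not pass, at the values given above. Against the fit without the score, the fall was larger for Per1, similar for Nr1d2 and smaller for Clock. The score itself was higher in the old (median 4.38) than in the young (median 3.21), so age and the score overlap in this model. A lost call alone therefore does not show that a difference shrank. Old 1187 had the highest score, 6.09. Without that mouse and without the covariate the same 5 members passed; with the covariate and without 1187, an alternative added after seeing the data, 2247 genes and 0 members passed, Per2 being at -0.64 (edgeR adjusted p = 0.0621) and Npas2 at 1.19 (adjusted p = 0.0548). The part of these cells in the age differences was not tested further.

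Within an age and cull day, some members varied together from mouse to mouse. Taking each mouse's log2 CPM as its deviation from the mean of its group, Npas2 followed Arntl with Pearson's r = 0.908 over 19 mice (permutation p = 3e-05, adjusted p = 0.00027 over 9 relations; Spearman's rho = 0.854, permutation p = 4e-05). Within each cull day r was 0.910 and 0.927, in young and in old mice it was 0.895 and 0.951, and it was 0.847 without young 1243 and 1188, the mice farthest from the median of Arntl. Both genes are known targets of the REV-ERB receptors.

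Of the other 8 relations, 4 passed the adjusted threshold. The test was not run for genes outside the members, so no share of all genes stands beside these calls. Cry1 rose with Arntl (r = 0.752, permutation p = 0.00288, adjusted p = 0.00864; rho = 0.604, p = 0.019; 0.606 without the 2 farthest mice; 0.700 and 0.907 within the cull days). Per3 fell as Arntl rose (r = -0.708, permutation p = 0.00115, adjusted p = 0.00517; rho = -0.653, p = 0.00271; -0.564 without the 2 farthest; -0.694 and -0.814 within the cull days). Nr1d2 (r = -0.647, permutation p = 0.0146, adjusted p = 0.0328; rho = -0.542, p = 0.0434; -0.530 without the 2 farthest; -0.666 and -0.604 within the cull days) ran opposite to Arntl. So did Nr1d1 (r = -0.587, permutation p = 0.0258, adjusted p = 0.0465; rho = -0.525, p = 0.0483; -0.548 without the 2 farthest; -0.718 and -0.251 within the cull days). Clock (0.498), Cry2 (-0.377), Per1 (-0.275) and Per2 (-0.174) did not pass, with adjusted permutation p-values from 0.0871 to 0.548. By Spearman's rho, Npas2 (adjusted permutation p = 0.00036) and Per3 (0.0122) passed after adjustment, while Cry1 (0.0571), Nr1d1 and Nr1d2 (both 0.087) did not.

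Leaving out mice changed several calls. No library lay between 10.2 and 14.7 CPM of Arntl, with 5 mice below and 14 above. Within the 14, where both the range of Arntl and the number of mice are smaller by construction, none of the 9 relations passed, Npas2 being at r = 0.693 (permutation p = 0.0255, adjusted p = 0.104), Nr1d2 at -0.655 and Per3 at -0.635, and all kept their signs. Without young 1243 only that with Npas2 passed (0.87, adjusted permutation p = 0.00036), and without young 1188 those with Npas2, Per3 and Cry1 did. Leaving out old 1183 or young 1184 also left 3 that passed. Over the 19 fits that leave out 1 library, the relation with Npas2 passed in 19, those with Per3 and Cry1 in 18 each, that with Nr1d2 in 14 and that with Nr1d1 in 6 (adjusted permutation p up to 0.128).

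**Figure D2:**
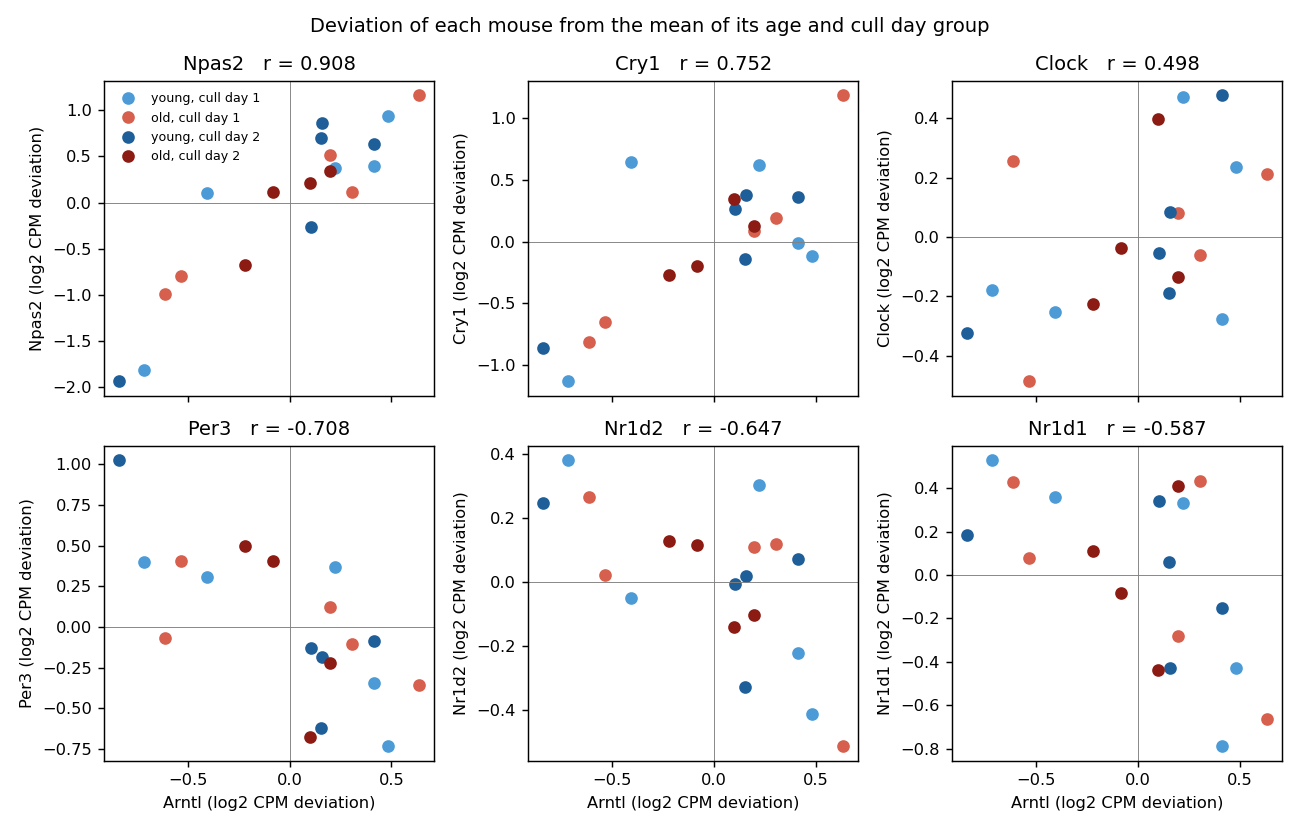
Deviation of each mouse from the mean of its age and cull day group in log2 CPM, for 6 clock genes (y axes) against Arntl (x axis); each point is 1 mouse, coloured by group. Npas2 (r = 0.908) and Cry1 (r = 0.752) rise with Arntl, Per3, Nr1d2 and Nr1d1 fall, Clock (r = 0.498) did not pass the test, and the points at the far left are young 1243 and 1188.

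Among 12739 tested genes outside the members, those whose log2 CPM over the 19 libraries was most like that of Arntl were Lgalsl (r = 0.889), Chka (0.859), which encodes a choline kinase, Dtx4 (0.824), Abtb2 (0.803) and Tjp3 (0.793), a tight junction gene. These coefficients are descriptions over libraries that share age, day and preparation. At the other end of the same ranking, looked up after the values were seen, stood Dbp, the most opposite of all at -0.826, then Ciart (-0.787) and Tef (-0.779), all known targets of the BMAL1 and CLOCK pair. The genes most like Nr1d1 were Trib3 (0.790), a pseudokinase gene induced by stress, Dbp (0.741), Phc1 (0.717), Tmem186 (0.710) and Pknox2 (0.689). Nfil3, a repressor at D-boxes and itself a REV-ERB target, looked up in the same way, was the most opposite to Nr1d1 (-0.760) and ranked 22 in likeness to Arntl (0.674).

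Around the core genes, a list of 23 further clock genes (ROR receptors, D-box factors, kinases, ubiquitin ligases and outputs) had 22 members tested, of which 3 were higher, 7 lower and 12 not called for age over both days. That is 10 of 22, against 32.0% of all genes, with a median log2 fold change of -0.22. Lower were Usp2, a deubiquitinase that acts on clock proteins (-1.55, edgeR adjusted p = 0.00325), the D-box activators Tef (-0.58, adjusted p = 0.00846) and Hlf (-0.38, adjusted p = 0.0179), Fbxw11 (-0.25, adjusted p = 0.00885), a ubiquitin ligase subunit for PER proteins, and the kinases Gsk3b (-0.35, adjusted p = 0.00932) and Prkaa2 (-0.47, adjusted p = 0.0123). Csnk1e, a casein kinase that phosphorylates PER proteins, was higher (0.58, adjusted p = 0.0196). With the other-cell score in the model, Usp2 (-1.72, edgeR adjusted p = 0.0202) and Fbxw11 (-0.34, adjusted p = 0.00992) passed and the other 5 genes named here did not. Of those 5 only the value of Csnk1e, 0.03, is given, and a lost call alone does not show that a difference shrank. Dbp, the D-box activator that follows the clock most closely in liver, was at 1.64 to 43.1 CPM in young and 2.52 to 21.3 CPM in old mice and did not pass (-0.98, edgeR adjusted p = 0.139).

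Noct, which encodes nocturnin, a rhythmically expressed phosphatase of NADP(H), was higher in the old by 2.79 ± 0.23 on the log2 scale (SE; adjusted p = 8.11e-07 by edgeR), more than any core member changed. It was at 5.41 to 20.5 CPM (median 11.2) in young and 59.9 to 124 CPM (median 71.2) in old mice, with every old mouse above every young one. The cold-induced gene Cirbp and the stellate markers Lrat, Dcn and Colec11 separated in the same way. The share of all genes that did so was not counted. Noct passed with the other-cell score in the model (3.14, edgeR adjusted p = 3.71e-07). Its correlation with Arntl over the 19 libraries was 0.200, against -0.826 for Dbp.

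**Figure D3:**
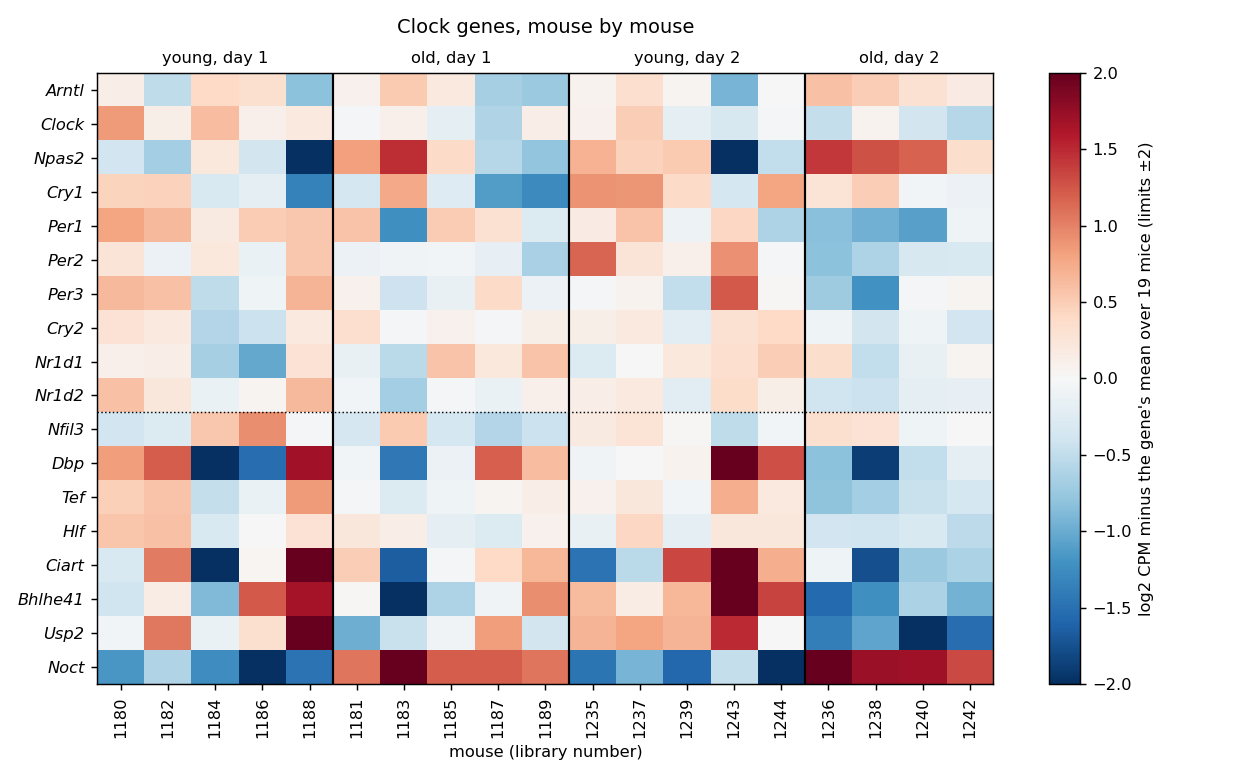
Log2 CPM of the 10 clock genes (above the dotted line) and 8 related genes (below it) in each of 19 mice, as the difference from the gene's mean over all mice (colour, limited to 2 either way); columns are mice by library number in their age and cull day groups. Young 1188 and 1243 show low Arntl, Npas2 and Cry1 with high Dbp, Ciart and Per3, old 1183 shows the opposite, and among the genes shown Noct alone has every old mouse above every young one.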

How the data were processed

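The authors deposited 1 table of estimated counts per gene for 19 libraries; per the file headers, HOMER's analyzeRepeats.pl counted reads in exons of RefSeq transcripts of mm10, condensed to 1 transcript per gene, without normalization. The submitters' processing notes name STAR and HOMER; versions, the treatment of reads with several matches and the strand setting are not given in the sources used here. RNA was extracted with Trizol and chloroform for stranded paired-end libraries, per the labels' protocols. Of the cells, 29.2% were not whole, all multiples of 0.5, and they were rounded before any test, although the tests had been chosen for plain counts. Between 78.34% and 86.52% of the total in each column name was in genes.

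edgeR 4.0.16 (R 4.3.3) was used with TMM scaling, filterByExpr by age and cull day, quasi-likelihood tests and Benjamini-Hochberg adjustment over 12749 genes at 0.05. The fit over both days was cull day plus age; values within days, their difference and the cull day comparison came from 1 model of 4 group means. SE is the absolute log2 fold change over the square root of F. Relations used log2 CPM (prior count 2) and 100000 permutations within groups (scipy 1.17.1). Tests were checked on simulated data. Alternatives were DESeq2 1.42.0, other scalings and filters, an other-cell covariate and left-out libraries. The members and lists were chosen with earlier results of these data known. All members are named; of other lists, at most 8 genes past the threshold by p, and the 5 genes most like Arntl and Nr1d1.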

Additional observations from a re-analysis of the deposited data

Results flagged for a closer look

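In 40 groups of 4 or 5 mice (10 genes, 4 groups each), 2 had a mouse far from the others of its group by Dixon's criterion at the 95% level, where chance alone gives about 1 group in 20. Per2 in old 1189 of the first cull day was at 3.43 CPM while the other 4 old mice were at 4.79 to 5.15 CPM, a gap of 0.793 of the group's range against a limit of 0.71. Without this mouse the log2 fold change of Per2 over both days was -0.66 (edgeR adjusted p = 0.0109). Per3 in young 1243 of the second cull day was at 4.72 CPM while the other 4 young mice were at 1.44 to 2.13 CPM, a gap of 0.788 of the range. Without it the log2 fold change of Per3 was -0.33 (edgeR adjusted p = 0.209). Young 1243 also had the lowest Arntl of all mice, 7.62 CPM.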

How the results depend on the processing

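The directions of the 5 members called over both days held in every alternative run, and Clock, Per2 and Nr1d2 passed with any single library left out. With the other-cell covariate, 1596 genes and 2 members were called for age over both days, and Cry1 (0.09) and Cry2 (0.04) turned positive; with old 1187 also left out, a choice made after seeing the data, 2247 genes and 0 members were called, and Cry1 was 0.11 and Cry2 0.13. Without a cull day term 3547 genes and 3 members were called, Npas2 and Per1 being lost. Without young 1184, 1186 and 1188, Nr1d1 over both days was -0.10. Leaving out 1 library gave 3093 to 4212 genes, 3 to 5 members, and Nr1d1 from -0.01 to 0.15.

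On the first cull day, 407 genes were called without those 3 libraries and 450 in a fit of the day alone, and DESeq2 called 2842 genes and 2 members. Arntl was 0.04 with library totals alone, 0.11 without the 3 libraries and 0.06 with the covariate, Cry1 0.11 with the covariate, and Cry2 -0.16 without the 3. Leaving out 1 library gave 1211 to 2893 genes, 0 to 2 members, and Arntl from -0.20 to 0.12. On the second cull day, library totals alone called 448 genes, DESeq2 1271, the covariate 92 genes and 0 members (Cry1 0.06), and the day alone 2389 genes and 3 members. Leaving out 1 library gave 165 to 1661 genes and 0 to 1 member.

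For the difference in age effect between days, DESeq2 called 18 genes; Npas2 was 0.15 with the covariate and Cry1 0.30 without the 3 libraries. Leaving out 1 library gave 0 to 1 gene, Clock from -0.01 to 0.30, Npas2 -0.29 to 0.38, Per3 -0.51 to 0.05, Cry1 -0.38 to 0.21 and Nr1d2 -0.08 to 0.12. Between cull days, 918 genes were called with no filter and 0 without the 3 libraries (Nr1d1 -0.08). DESeq2 called 1993 genes and the covariate fit 2027, with 1 member each. Leaving out 1 library gave 296 to 2193 genes, 0 to 2 members, Per2 from -0.06 to 0.10 and Nr1d1 from -0.02 to 0.12. Of the relations to Arntl, 3 passed without the 3 libraries and 0 in the 14 above the gap, a choice made after seeing the data that also narrows the range of Arntl; leaving out 1 library gave 1 to 5, and Per2 from -0.35 to 0.01. The cause of these changes was not tested. No paired analysis was run, since no library number is shared between the ages and no pairs are named. The numbers alternate between young and old from 1180 to 1189 on the first cull day and from 1235 to 1240 on the second. Whether they follow the order of killing is not known, and an effect of that order was not tested. Npas2 and Per3, with as few as 4 and 18 counts in a library, are the members that depth limits most.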

Other observations

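Genes that respond to temperature, to glucocorticoids and to feeding share signals with the clock, and their values for age over both cull days are given here without a test against the clock genes. Of 10 temperature-responsive genes, 2 were higher in the old and 6 lower by edgeR's test, where 32.0% of all genes were called. The cold-induced RNA-binding genes Cirbp (0.85 on the log2 scale, adjusted p = 0.000278) and Rbm3 (0.77, adjusted p = 0.00932) were higher, Cirbp at 19.1 to 26.3 CPM in old and 7.99 to 18.1 CPM in young mice. The heat shock genes Hspa1a (-1.90, adjusted p = 0.00525), Hspa1b (-1.63, adjusted p = 0.00897), Hsph1 (-1.04, adjusted p = 0.000279), Hsp90aa1 (-0.86, adjusted p = 0.00446), Hspa8 (-0.55, adjusted p = 0.00405) and Dnajb1 (-0.53, adjusted p = 0.0145) were lower.

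Of 12 glucocorticoid-responsive genes, none was higher and 4 were lower, against 32.0% of all genes called (17.0% higher and 15.0% lower): Tat, a tyrosine-degrading enzyme (-1.11, edgeR adjusted p = 0.000293), Tsc22d3 (-0.44, adjusted p = 0.0295), Klf9 (-0.46, adjusted p = 0.0321) and Errfi1 (-0.52, adjusted p = 0.0338). The calls of Tsc22d3, Klf9 and Errfi1 held in 15, 11 and 10 of the 19 fits that leave out 1 library (adjusted p up to 0.0683), and that of Tat in 19. Of 12 genes of fasting and feeding, Pdk4, which restrains glucose oxidation, was higher (1.17, edgeR adjusted p = 0.0113), Pck1, an enzyme of gluconeogenesis, was lower (-0.51, adjusted p = 0.0219), and 10 were not called, so that 2 of 12 were called against the same 32.0% of all genes. With the other-cell score in the model, Cirbp, Hsph1, Hsp90aa1, Hspa8, Tat, Pdk4 and Pck1 passed, and Rbm3, Hspa1a, Hspa1b, Dnajb1, Tsc22d3, Klf9 and Errfi1 did not. A lost call alone does not show that a difference shrank, since the score itself was higher in the old.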
